A study of Mus musculus with 23 samples.

Results

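The window of mouse chromosome 9 that carries the apolipoprotein genes Apoa1, Apoc3, Apoa4 and Apoa5 was followed across 23 ATAC-seq libraries of intestinal epithelium, an assay in which a transposase inserts sequencing adapters into open DNA. Members were the regions formed by merging overlapping peaks of the 23 libraries in a 100 kb window, the outermost of them spanning chr9:45993388-46081551 in the mm9 build. This gave 23 regions from 137 peaks, out of 149024 regions in the genome, and they are numbered here 1 to 23 from the lowest coordinate to the highest. The window had been picked with results of these libraries known, and presence and pileup were the values that chose it, so the levels below are a description and carry no test.

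Juvenile mice gave whole duodenal epithelium at 12 days and colon epithelium at 15 days. Adult mice of 90 days and geriatric mice of 21 months gave duodenal villi, the projections lined with differentiated absorptive cells, and duodenal crypts, the pits that hold dividing cells. Adult colon and geriatric proximal colon completed the 8 groups, each of 3 libraries except geriatric proximal colon with 2, numbered 1 and 3. Per the labels' protocols villi were the material held back by a cell strainer and crypts the material that went through it, so each is an enriched fraction, not a sorted cell type. Colon was pooled, from 6 animals per juvenile library and from 2 animals per library in adult colon and in geriatric proximal colon. The sources used here give no strain, genotype or treatment. The labelled tissues were not checked against marker genes, because no mm9 annotation was used. In these bulk samples, fewer cells of a type and less open chromatin per cell cannot be told apart.

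The 4 genes encode proteins of the particles that carry fat in blood and lymph. Apoa1 encodes the main protein of high-density lipoprotein. Apoa4 encodes a protein that absorptive cells of the small intestine, the enterocytes, secrete with chylomicrons, the particles that export dietary fat. Apoc3 encodes an inhibitor of lipoprotein lipase and of the clearance of fat-rich particles, and Apoa5, expressed mainly in liver, encodes a promoter of that clearance. The genes lie side by side and are known to be transcribed in liver and, for Apoa1, Apoc3 and Apoa4, in small intestine, where the nuclear receptor HNF4 is a known regulator of the cluster. In the RefSeq GRCm38 annotation the order along the chromosome is Apoa1, Apoc3, Apoa4, Apoa5, followed by Zpr1 and Bud13, which are not apolipoprotein genes. That annotation is of another build than the peaks, so no region is assigned here to the start, body or flank of a gene.

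Promoter sequences are shown because the cluster's genes are what the window was chosen for. RefSeq promoter sequence was matched for 3 of the 4 genes, and the 250 bases before each start are printed from 5′ to 3′ on the plus strand of GRCm38.p6. These positions cannot be set beside the mm9 positions of the peaks. Capitals mark matches, found by a search of both strands, to any of 5 motifs. The HNF4-type direct repeat was searched as CAAAGNNCA. The motif of GATA factors, which act in gut epithelium, was searched as GATAAG. The half-site of HNF1, a factor of liver and gut, was searched as GTTAAT. The motif of the intestinal CDX factors was searched as TTTATNG. The TATA box was searched as TATAAA. None of these motifs overlapped another in the printed sequences. The Apoa1 sequence is chr9:46228380-46228629, the Apoa4 sequence is chr9:46240594-46240843, and the Apoa5 sequence, from 1 of 2 starts in the table, is chr9:46268358-46268607.
Apoa1: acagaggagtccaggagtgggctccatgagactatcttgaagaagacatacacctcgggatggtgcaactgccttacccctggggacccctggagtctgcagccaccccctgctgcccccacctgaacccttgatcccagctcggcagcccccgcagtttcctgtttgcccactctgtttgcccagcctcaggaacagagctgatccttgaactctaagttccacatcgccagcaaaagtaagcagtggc
Apoa4: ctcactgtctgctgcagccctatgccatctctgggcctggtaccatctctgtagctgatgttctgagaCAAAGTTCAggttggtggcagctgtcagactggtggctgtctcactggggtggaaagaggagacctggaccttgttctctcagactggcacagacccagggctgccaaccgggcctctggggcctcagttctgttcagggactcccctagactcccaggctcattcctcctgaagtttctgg
Apoa5: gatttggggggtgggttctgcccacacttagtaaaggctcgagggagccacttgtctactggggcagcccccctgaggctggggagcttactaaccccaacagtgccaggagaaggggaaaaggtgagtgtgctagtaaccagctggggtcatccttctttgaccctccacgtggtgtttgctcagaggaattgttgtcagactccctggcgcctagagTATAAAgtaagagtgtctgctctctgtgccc
The Apoa4 sequence held CAAAGTTCA at bases 69 to 77, its first base 182 bases before the start, and 5.49% of 32851 RefSeq promoter sequences of this length hold a CAAAGNNCA match. The Apoa5 sequence held TATAAA at bases 220 to 225, with the first base 31 bases before the start, and 12.4% of the promoter sequences hold that motif. The GATA motif, held by 6.55% of the promoter sequences, the HNF1 half-site, held by 6.43%, and the CDX motif, held by 9.81%, were in none of the 3. A match is a description of the letters, not evidence of a bound site.

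Total reads ran from 32.7 to 95.7 M per library (M, 1000000 reads), and 14.4 to 47.9 M remained after the caller kept 1 read per position. A peak's pileup is the height of the stack of extended reads at its summit. It was scaled to 1000000 kept reads of the library, and its unit is written RPM below. The lowest pileup in RPM called in a library lay between 0.205 and 0.476, so a region without a peak may still hold signal below that. Reads were extended by 68 to 210 bp depending on the library, and pileup grows with extension. Adult villus 3, with an extension of 68 bp, and geriatric villus 3, with 116 bp, stood below the other libraries of their groups. The median pileup of all peaks was 0.376 in adult villus 3 against 1.13 and 0.899 in adult villus 1 and 2, and 0.571 in geriatric villus 3 against 1.31 and 0.892 in geriatric villus 1 and 2. Crypt libraries 3 were lower too, with a median of 0.544 in adult crypt 3 against 0.835 and 0.872, and 0.445 in geriatric crypt 3 against 0.856 and 0.714. Library 3 had the most total reads in 7 of the 8 groups. Counts of regions between groups are given with and without the villus libraries 3.

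Group by group, villus had the highest mean number of open regions in the window, 10.3 in adult and 10.7 in geriatric villus against 8.67 in juvenile duodenum, but the libraries overlapped. Adult villus libraries had peaks in 14, 11 and 6 of the 23 regions and geriatric villus libraries in 10, 12 and 10. Juvenile duodenum libraries had 8, 9 and 9. Adult crypt libraries had 7, 2 and 9 and geriatric crypt libraries 8, 4 and 3. Juvenile colon libraries had 1, 2 and 3, and each of the 3 adult colon and 2 geriatric proximal colon libraries had 1. The villus range overlapped those of juvenile duodenum and crypt, whereas the colon counts lay below all duodenum counts except those of adult crypt 2 and geriatric crypt 3, which fell inside the colon range. Genome-wide the mean was 1.88 to 3.24 peaks per 100 kb in duodenum libraries and 0.607 to 1.76 in colon libraries. Peaks covered 1596 to 5547 bp of the window in villus libraries, 2028 to 2484 bp in juvenile duodenum, 335 to 1867 bp in crypt and 94 to 688 bp in colon.

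**Figure D1:**
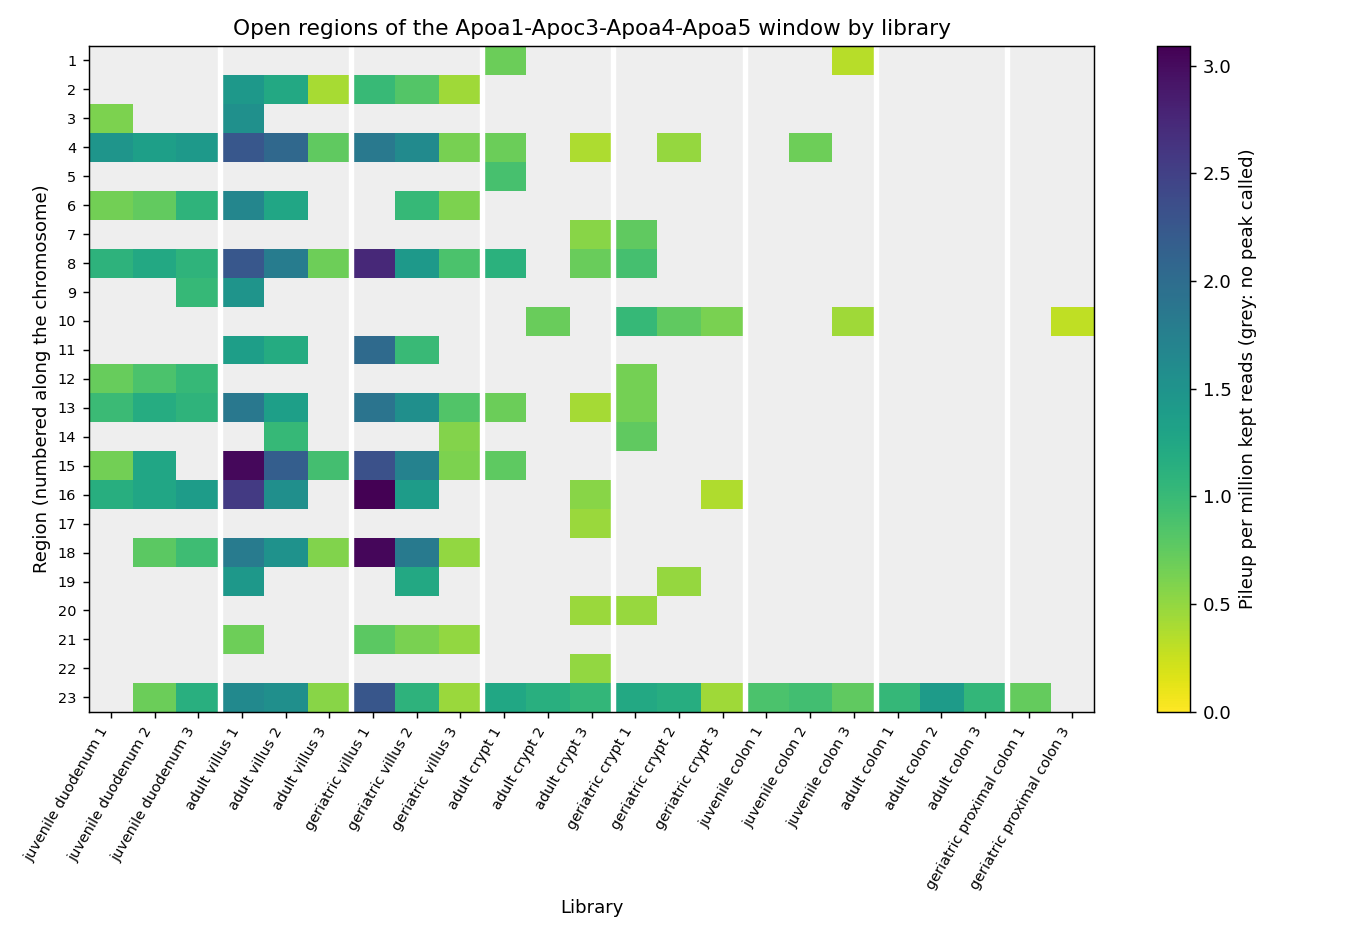
Pileup (RPM) (colour) of the 23 regions (rows, in chromosome order) in the 23 libraries (columns, grouped by tissue and age), with grey where no peak was called. Villus libraries 1 and 2 and the juvenile duodenum libraries hold most of the filled cells of the middle rows. Adult villus 3 holds fewer, and colon columns are almost empty there, while region 23 is filled in 21 of 23 libraries.

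Of the 23 regions, 15 had a peak in at least 3 libraries and are described by name, and 12 of these had no peak in any colon library. The matching share over all regions of the genome was not computed. Colon libraries had 11355 to 32855 peaks genome-wide against 35105 to 60519 in duodenum libraries, so the 12 are no result about the cluster. The other 8 of the 23 regions were called in 1 or 2 libraries, 3 of them in 1 and 5 in 2. Of these 8 sparse regions, 6 were called in crypt and not in villus, 2 were called in villus and 1 was also called in colon. The matching shares over all sparse regions of the genome were not computed, so nothing about the cluster is read from these counts. The outermost member on the low side, region 1, had peaks in 2 libraries, and the nearest region outside the window on that side, chr9:45983593-45983705, had a peak in 1 library. On the high side region 23 had peaks in 21 libraries, and so had the nearest region outside, chr9:46090711-46091440, which starts 711 bp past the edge.

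Region 4, chr9:46014768-46015876, was called in 12 of 15 duodenum libraries. Its pileup in RPM was 1.48, 1.35 and 1.44 in juvenile duodenum 1 to 3, or 1.42 ± 0.0672 (SD, n = 3). It was 2.26, 2.04 and 0.752 in adult villus (1.68 ± 0.814, SD, n = 3) and 1.84, 1.62 and 0.638 in geriatric villus (1.37 ± 0.640, SD, n = 3). Crypt libraries gave 0.696 in adult crypt 1, 0.377 in adult crypt 3 and 0.491 in geriatric crypt 2, with no peak in the other 3. Among colon libraries, juvenile colon 2 alone had a peak, at 0.687. The juvenile libraries lay close together and above all crypt and colon values, while villus libraries 1 and 2 of both ages reached higher and the villus groups spread wider. Divided by read extension the order of the groups turned, with 1.52 ± 0.167 RPM per 100 bp in juvenile duodenum, 1.40 ± 0.251 in adult villus and 0.815 ± 0.240 in geriatric villus (SD, n = 3 each). Within each age every villus library lay above every crypt library, although geriatric villus 3 lay below adult crypt 1.

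Region 8, chr9:46035061-46035531, was called in every villus and juvenile duodenum library and in no colon library. Its pileup in RPM was 1.10, 1.22 and 1.08 in juvenile duodenum (1.13 ± 0.0769, SD, n = 3), 2.26, 1.80 and 0.684 in adult villus and 2.73, 1.42 and 0.874 in geriatric villus. Adult crypt 1 had 1.11, adult crypt 3 had 0.712 and geriatric crypt 1 had 0.909, and the remaining 3 crypt libraries had no peak. In RPM, villus libraries 1 and 2 lay above every crypt library. Geriatric villus 3, at 0.874, lay among the called crypt values, and adult villus 3, at 0.684, lay below them. Per 100 bp of extension geriatric villus 2, at 0.893, lay below adult crypt 1, at 1.10. Fold enrichment is the deposited ratio of pileup to local background. By it adult crypt 3, at 5.65, and geriatric crypt 1, at 5.17, lay above villus libraries 1 and 2, at 3.95 to 4.90. Adult crypt 1, at 4.62, lay among those. Mean fold enrichment was 5.70 in juvenile duodenum, 4.98 in adult villus and 4.39 in geriatric villus (n = 3 each).

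Regions 13, 15 and 16 lie further along, within 6 kb of one another. Region 13, chr9:46043723-46044074, had 0.989, 1.18 and 1.08 in juvenile duodenum. Adult villus 1 and 2 had 1.85 and 1.35 with no peak in adult villus 3, and the geriatric villus libraries had 1.9, 1.55 and 0.840. Crypt values of region 13 were lower, at 0.696 and 0.419 in adult crypt 1 and 3 and 0.642 in geriatric crypt 1. Region 15, chr9:46046718-46047279, carried the highest pileup of the window in adult villus, at 3.02, 2.17 and 0.923 RPM, and had 2.32, 1.72 and 0.605 in geriatric villus. In juvenile duodenum it was 0.659 and 1.26 in libraries 1 and 2 with no peak in library 3, and the one crypt peak was 0.765 in adult crypt 1. So the juvenile values of region 15 overlapped the lowest villus values, and the crypt value lay inside the geriatric villus range. Region 16, chr9:46048750-46049310, held the highest pileup of the window before adjustment for extension, 3.09 RPM in geriatric villus 1, with 1.39 in geriatric villus 2 and 2.57 and 1.55 in adult villus 1 and 2. Per 100 bp of extension that value was 1.47, below the 2.08 of region 15 in adult villus 1. Neither villus library 3 had a peak there, whereas all juvenile duodenum libraries did, at 1.15, 1.26 and 1.38 (1.26 ± 0.112, SD, n = 3). Crypt peaks of region 16 were 0.544 in adult crypt 3 and 0.371 in geriatric crypt 3. No colon library had a peak in regions 13, 15 or 16. Per 100 bp of extension region 13 had 1.15 ± 0.0265 in juvenile duodenum and 0.869 ± 0.130 in geriatric villus (SD, n = 3 each). Adult villus 1 and 2 had 1.28 and 1.01 there. Region 15 on that scale had 1.36 to 2.08 in adult villus against 0.749 and 1.26 in juvenile duodenum 1 and 2. The fold enrichment of region 16 was 4.83 to 5.92 in juvenile duodenum and 2.63 to 4.01 in villus libraries 1 and 2.

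**Figure D2:**
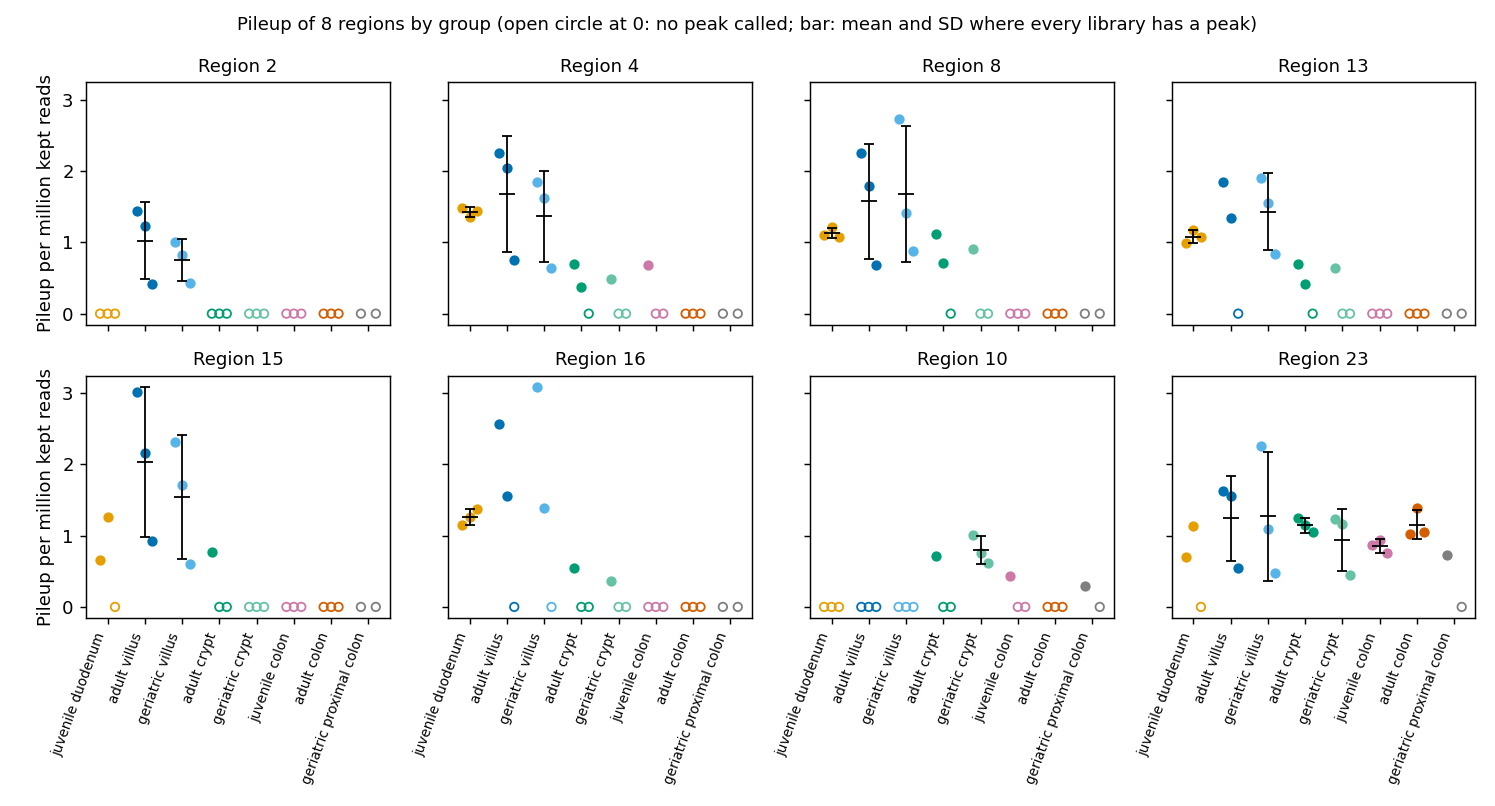
Pileup (RPM) (y axis) of 8 regions in the 8 groups, 1 point per library, with an open circle at 0 where no peak was called and a bar for mean and SD where every library of the group had a peak. Before adjustment for extension, regions 2, 4, 8, 13, 15 and 16 reach their highest values in villus and are empty or nearly empty in colon. Region 10 has no called peak in villus, and region 23 is present in every group.

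A further group of regions was called mainly in villus. Region 2, chr9:46008978-46009346, had a peak in all 6 villus libraries and in no other library, with pileup of 1.44, 1.23 and 0.410 in adult villus and 1.01, 0.826 and 0.437 in geriatric villus. The lowest pileup in RPM that the 9 duodenum libraries without this peak called anywhere ran from 0.222 to 0.381, so the signal of both villus libraries 3 was close to that floor. Region 18, chr9:46051761-46052659, had a peak in all 6 villus libraries, at 1.80, 1.51 and 0.581 in adult and 3.03, 1.82 and 0.504 in geriatric villus. Outside villus, region 18 was called in juvenile duodenum 2 and 3, at 0.784 and 0.958, and in no crypt or colon library. Region 11, chr9:46038729-46039742, was called in villus libraries 1 and 2 of both ages only, at 1.35 and 1.19 in adult and 2.02 and 0.991 in geriatric villus. Region 21, chr9:46073619-46073858, was a weak villus region, at 0.677 in adult villus 1 and 0.773, 0.627 and 0.504 in geriatric villus 1 to 3. Region 6, chr9:46032196-46032525, joined villus with juvenile duodenum, at 0.659, 0.741 and 1.08 in the juvenile libraries, 1.67 and 1.27 in adult villus 1 and 2, and 1.02 and 0.605 in geriatric villus 2 and 3. Regions 14 and 19, chr9:46045460-46045736 and chr9:46052678-46053167, had 3 peaks each, in 1 adult villus, 1 geriatric villus and 1 geriatric crypt library, between 0.571 and 1.02 and between 0.491 and 1.44 RPM.

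By called peaks a pair of regions ran the other way. Region 10, chr9:46037993-46038466, had no peak in villus or juvenile duodenum and was called in 4 crypt libraries, at 0.708 in adult crypt 2 and 1.02, 0.759 and 0.618 in geriatric crypt 1 to 3. It was also called in juvenile colon 3 at 0.439 and in geriatric proximal colon 3 at 0.294. It lies 262 bp from region 11, which was called in villus alone. At region 11 the local background was 4.56 to 6.35 times the genome-wide one in villus libraries 1 and 2. Their peaks there, at 0.991 to 2.02 RPM, had a fold enrichment of only 2.43 to 2.97. Peaks are called against local background, so villus signal at the level of these crypt values may have gone uncalled. Region 12, chr9:46043352-46043565, was called in every juvenile duodenum library, at 0.714, 0.871 and 1.02 in juvenile duodenum 1 to 3, and its only other peak was 0.642 in geriatric crypt 1. Region 12 lies 157 bp from region 13, and of this pair villus libraries had peaks in region 13 alone. The local background at region 13 was 4.71 to 6.61 in villus libraries 1 and 2, so the same limit holds for region 12.

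Region 23, chr9:46080857-46081551, was shared by all groups. Pileup in RPM was 1.25, 1.14 and 1.05 in adult crypt (1.15 ± 0.103, SD, n = 3), 1.03, 1.39 and 1.05 in adult colon (1.16 ± 0.204, SD, n = 3) and 0.872, 0.937 and 0.752 in juvenile colon (0.853 ± 0.0937, SD, n = 3). It was 1.62, 1.55 and 0.547 in adult villus, 2.26, 1.09 and 0.470 in geriatric villus and 1.23, 1.16 and 0.445 in geriatric crypt. Juvenile duodenum 2 and 3 gave 0.697 and 1.14, geriatric proximal colon 1 gave 0.730, and juvenile duodenum 1 and geriatric proximal colon 3 had no peak. Ranges of villus, crypt and colon overlapped throughout. The summits of its 21 peaks fell within 114 bp of one another.

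The broader surroundings of the peaks were also read. The deposited fold enrichment of each peak gives back the background that the caller had used, the local background over 10 kb around it. This is expressed here as a multiple of the library's genome-wide background, a ratio that divides out depth and read extension. The lowest ratio over all peaks was 1.00 in every library, so a value of 1.00 is a floor. The local background includes the reads of the peaks themselves and is known only where a peak was called. Its highest value in the window was 7.84, 7.10 and 3.37 in adult villus (6.10 ± 2.40, SD, n = 3) and 7.57, 5.95 and 2.48 in geriatric villus (5.33 ± 2.60, SD, n = 3). It was 3.38, 3.75 and 4.72 in juvenile duodenum (3.95 ± 0.695, SD, n = 3). Adult crypt gave 3.45, 1.77 and 2.15 (2.46 ± 0.878, SD, n = 3) and geriatric crypt 2.05, 1.70 and 1.83 (1.86 ± 0.180, SD, n = 3). Villus libraries 1 and 2 of both ages lay above every other library, and without villus libraries 3 the villus range was 5.95 to 7.84. With those libraries the villus range overlapped juvenile duodenum and adult crypt 1.

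Each library's highest value was set against all of its single peaks, so a maximum over several peaks looks rarer than a typical window peak. A share of 0.366% and 0.422% of all peaks of adult villus 1 and 2, and 0.518% and 0.626% of those of geriatric villus 1 and 2, had a local background as high. The share was 1.58% in adult villus 3 and 3.22% in geriatric villus 3. In juvenile duodenum it was 1.13% to 3.19%, and in crypt 3.03% to 22.7%. In colon, where the highest value of a library was 1.00 to 1.71, the share was 18.5% to 100%. The highest values lay between region 8 and region 19. At region 16 the local background was 7.84 and 7.10 in adult villus 1 and 2 and 3.17, 3.70 and 4.72 in juvenile duodenum, against 2.15 in adult crypt 3 and 1.53 in geriatric crypt 3. Towards the ends of the window it was lower, from 1.09 to 1.68 at region 2 in villus, 1.01 to 1.14 at region 21 in villus and 1.07 to 1.71 at region 23 across all groups. Inside that stretch the only colon values were 1.39 in juvenile colon 3 and 1.00 in geriatric proximal colon 3, both at region 10, so the background of colon there is largely unmeasured.

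**Figure D3:**
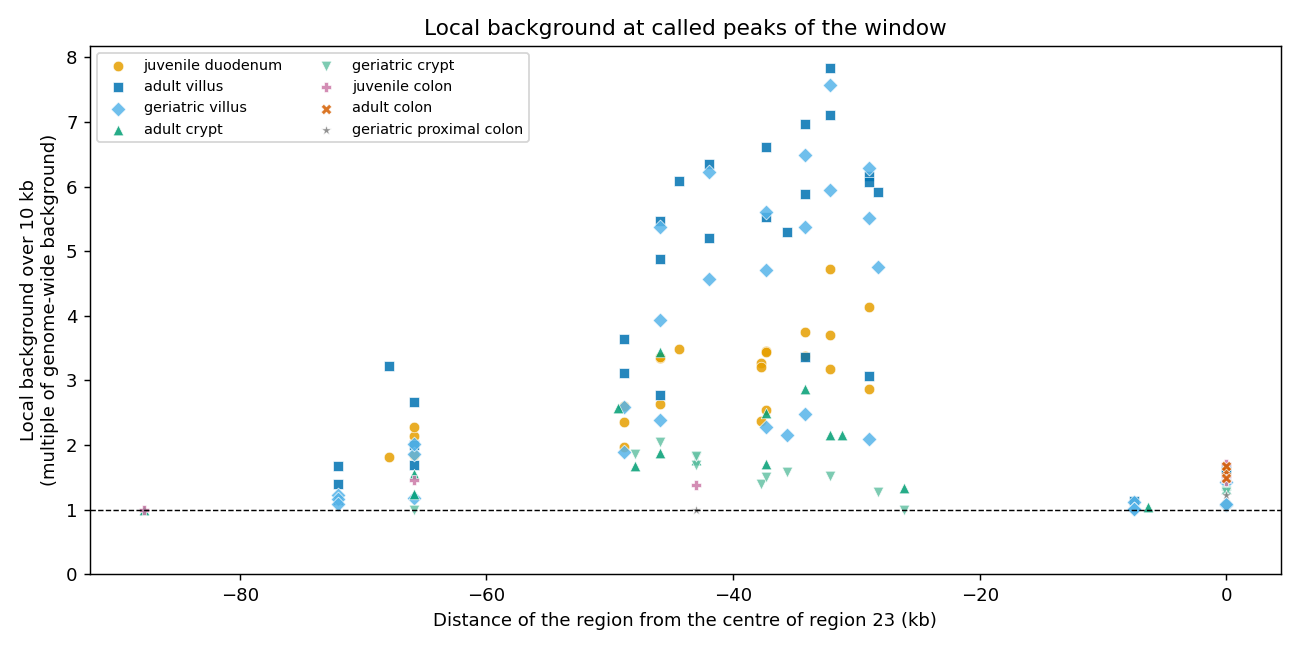
Local background over 10 kb as a multiple of the genome-wide background (y axis) at every called peak of the window, against distance from the centre of region 23 in kb (x axis), with 1 symbol per group and a dashed line at 1. Villus libraries 1 and 2 rise to between 5.95 and 7.84 in the middle of the window, juvenile duodenum to between 3.38 and 4.72, and at region 23 all groups lie between 1.07 and 1.71.

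In the villus libraries the region with the highest pileup was not the one with the highest fold enrichment, the authors' ratio of pileup to local background. In adult villus 1 the fold enrichment was 5.24 at region 15 with a pileup of 3.02 RPM, but 9.11 at region 4 with 2.26 and 10.3 at region 23 with 1.62. Region 16 of geriatric villus 1, with 3.09 RPM, had a fold enrichment of 3.46. Of that library's peaks, 39.8% had a higher −log10 p. Fold enrichment of region 11 ran from 2.43 to 2.97.

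Groups were compared by counting window regions in which every library of one group had a higher pileup than every library of the other, with a missing peak taken as 0 and only regions called in at least 2 of the libraries compared. The same count over the genome gives the background. With 3 libraries against 3 an exact permutation test cannot give a p under 0.1, and none was run. Adult villus exceeded adult crypt in 4 of 10 regions, namely 2, 4, 15 and 18, against 6.50% of all regions of the genome. Adult crypt exceeded adult villus in 0 of 10, against 8.54%. Geriatric villus exceeded geriatric crypt in 6 of 14 regions, namely 2, 4, 13, 15, 18 and 21, against 11.2% of all regions. The reverse held for region 10 alone, 1 of 14, against 8.91%, with villus taken as 0 there. The window was chosen on such differences, so nothing further is read from these shares. Without adult villus 3 the adult count was 10 of 10, against 40.1% of all regions, and without geriatric villus 3 the geriatric count was 9 of 12, against 27.2%. Without crypt library 3 the counts were 4 and 6.

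Adult villus exceeded adult colon in 5 of 10 regions, namely 2, 4, 8, 15 and 18, against 19.4% of all regions, and in 10 of 10 without adult villus 3, against 55.5%. Adult colon exceeded adult villus in none of the 10, against 10.6%. Adult crypt exceeded adult colon in 0 of 4 regions, against 23.8%, and the reverse was also 0, against 16.8%. Without adult crypt 2, the library with 2 window regions, 3 of 4 regions lay higher in adult crypt than in adult colon, against 41.3%. Juvenile duodenum exceeded juvenile colon in 6 of 9 regions, namely 4, 6, 8, 12, 13 and 16, but 58.4% of all regions did so, and the reverse was 0 against 1.51%. Geriatric villus exceeded geriatric proximal colon in 7 of 11 regions, against 49.0% of all regions, and the reverse was 0 against 2.15%. Without geriatric villus 3 this was 10 of 10, against 87.1%. For the juvenile and geriatric pairs the window's share was close to that of the genome, where colon peak lists are short, so these counts are no result about the cluster.

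**Figure D4:**
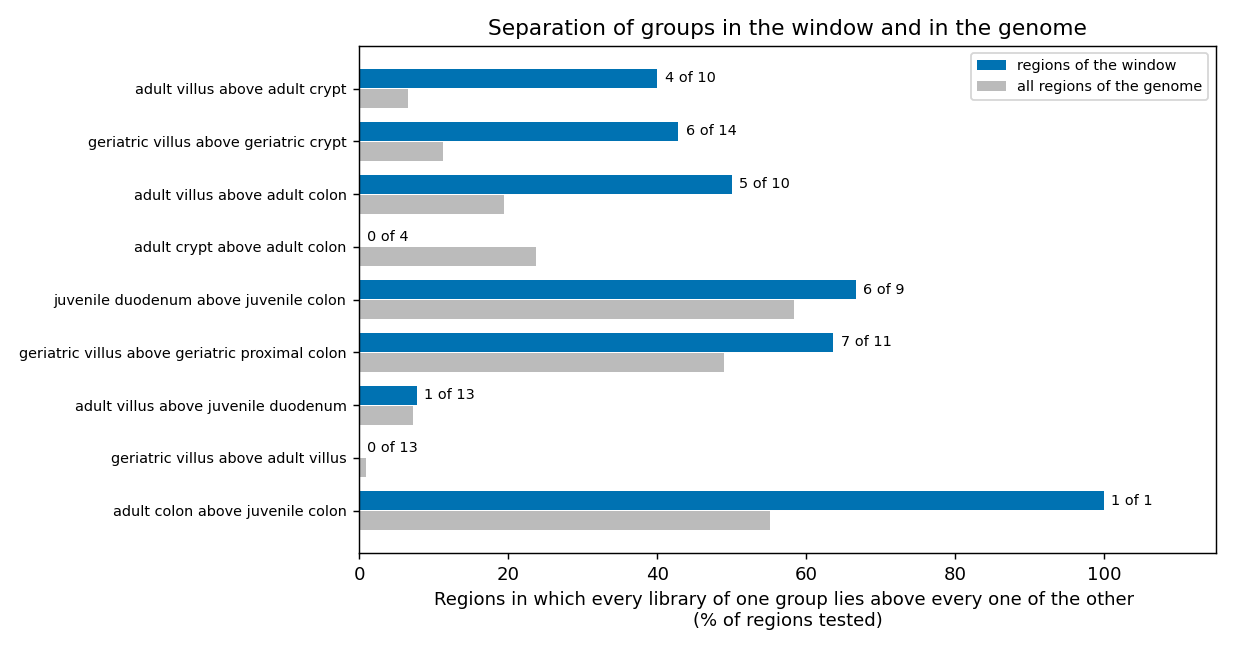
Share of tested regions (x axis, percent) in which every library of the first group lay above every library of the second, for 9 comparisons (y axis), with the window in blue and all regions of the genome in grey. Adult villus over adult crypt (4 of 10) and geriatric villus over geriatric crypt (6 of 14) are drawn beside genome shares of 6.50% and 11.2%, and geriatric over adult villus is 0 of 13.

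Age was compared within tissues. Geriatric villus exceeded adult villus in 0 of 13 regions, against 0.851% of all regions, and adult villus exceeded geriatric villus in 0, against 1.84%. The spread within each group was wider than the gap between them, as at region 15 with 2.04 ± 1.06 in adult and 1.55 ± 0.869 in geriatric villus (SD, n = 3 each), and a difference was not detectable with these libraries. Without geriatric villus 3, without adult villus 1, or without both villus libraries 3, the count of regions higher in geriatric villus was 1. Adult villus exceeded juvenile duodenum in 1 of 13 regions, region 2, against 7.18% of all regions, and juvenile duodenum exceeded adult villus in 1, region 12, against 15.7%. Both shares are near or below the background. Without adult villus 3 the first count was 10 of 13, against 35.6%, and without juvenile duodenum 2 it was 2. Read extension was 145 and 134 bp in adult villus 1 and 2 against 88 to 100 bp in juvenile duodenum. Per 100 bp of extension regions 4, 6, 13, 16 and 23 no longer separated, whereas regions 2, 8, 11, 15 and 18 did. At region 16 adult villus 2 had 1.16 on that scale against 1.46 in juvenile duodenum 3. Juvenile duodenum holds villus and crypt together, whereas adult villus is a fraction, so age and fraction cannot be told apart in that comparison. In colon the one region tested, region 23, was higher in adult than juvenile colon, against 55.2% of all regions, and the reverse count was 0, against 0.829%. That call was lost on 4 other scales. Relative to regions called in all libraries the direction turned, with 0.833 in adult and 1.26 in juvenile colon as multiples of the mean of the groups.

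Of the 28 lists in the authors' deposited tables, covering 14 comparisons in both directions, 10 held a region of the window. These lists were made from the same libraries, so they are not independent of the values above, and the sources used here do not state the model behind them. The authors' deposited table for adult villus over adult colon listed regions 2, 4, 6, 8, 11, 13, 15, 16 and 18, and it covers 14.3% of the regions tested in that comparison. The authors' deposited table for adult villus over adult crypt listed regions 4, 8, 11, 15, 16 and 18, against 5.53% of all regions, and the one for geriatric villus over geriatric crypt listed these and regions 2 and 13, against 7.71%. For geriatric villus over geriatric proximal colon the authors' deposited table listed regions 4, 13, 16 and 18, against 5.88%. The authors' deposited table for adult villus over juvenile duodenum listed regions 2, 14, 15 and 19, against 9.55%, and for geriatric villus over juvenile duodenum regions 2 and 21, against 6.21%. A further 4 of the authors' deposited tables listed 1 region of the window each, namely region 4 as higher in adult crypt than adult colon (11.2% of all regions), region 8 as higher in juvenile duodenum than juvenile colon (12.6%), region 23 as higher in juvenile colon than juvenile duodenum (12.8%) and region 10 as higher in juvenile than adult colon (5.02%). No region of the window was in an authors' deposited table for adult against geriatric villus or adult against geriatric crypt. Region 23 of juvenile colon, at 0.752 to 0.937 RPM, overlapped the called juvenile duodenum values of 0.697 and 1.14.

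Across the 23 libraries, the mean of log2(pileup + 1), with pileup in RPM, over 12 regions of the window, the named ones other than 11, 14 and 19, was correlated with the same value of 29793 regions called in at least 10 libraries, as a description without a test. The libraries share depth and read extension, and the median Pearson r was 0.498, with 11.9% of the regions at 0.8 or above. The region most like the window was chr4:94885205-94885895, with r = 0.973 over 23 libraries and a peak in 10 duodenum and 0 colon libraries. The next 4 had r of 0.967 to 0.970 and also no colon peak. These regions were picked for likeness to a profile mostly without colon peaks, so that absence is no separate result.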

How the data were processed

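Per the file headers, the authors called peaks in each of 23 libraries separately with MACS2 2.1.0.20150731 on mm9, without a control library, with an effective genome size of 1.87e+09, 1 read kept per position, a 10 kb local background and a q cutoff of 0.05. Per the file headers, the deposited pileup signal is the unscaled number of extended reads at a summit, the deposited −log10 p-value and −log10 q-value are against the local background, and the deposited fold enrichment is a ratio to that background. The submitters' processing notes also name DiffBind, Bowtie2, cutadapt 1.9.1, Picard 2.18.27, SAMtools 0.1.19, bedtools 2.17.0 and deepTools, and the authors' deposited region lists hold positions only. Any read shift for the transposase was not stated in the sources used here.

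Peaks sharing at least 1 bp were merged across libraries, and each library took its highest pileup in a region, scaled to 1000000 kept reads (RPM). Regions called in at least 3 libraries were named. Local background was computed as (pileup + 1)/fold − 1 and divided by the genome-wide value, a measure chosen after seeing the data. Counts over groups had no test. Scripts used Python 3.11.15, numpy 2.4.6 and pandas 2.3.3 and were tested on simulated data. The members, lists and motifs were chosen with earlier results of these data known. Pathway and marker gene lists were not used, since no mm9 annotation was given. Kept reads per library, 14.4 to 47.9 M (M, 1000000 reads), may limit which weak regions are called, which was not tested. The series description calls the replicates biological, but it counts fewer mice than libraries, and spread between libraries may be partly technical. Alternatives were other scalings, a −log10 q minimum of 5, lists cut to 11355 peaks, merging only at an overlap of at least 100 bp and leaving out each library.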

Additional observations from a re-analysis of the deposited data

How the results depend on the processing

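Of 81 alternative counts, 63 stayed within 1.5 times the main count, including counts of 0 that stayed 0. These 81 do not include leaving out libraries, which is given separately below. Of 169 alternative region values, 131 moved by less than the spread between replicates. With every list cut to its 11355 strongest peaks, regions higher in adult villus fell from 4 to 1 against adult crypt and from 5 to 1 against adult colon. The same cut left 0 for geriatric villus over geriatric crypt and over geriatric proximal colon. It also left 0 for juvenile duodenum over juvenile colon and for adult over juvenile colon. Cut lists hold fewer peaks, and the cause of these losses was not tested. A −log10 q of at least 5 left 1 for geriatric villus over crypt and 2 over proximal colon. Adult crypt over adult colon was 1 per 100 bp of extension, relative to regions called in all libraries, and by fold enrichment. Adult villus over juvenile duodenum was 2 per 100 bp and 6 relative to regions called in all libraries, and geriatric over adult villus was 2 on the latter scale. Adult over juvenile colon was 0 when scaled by total reads, per 100 bp, relative to regions called in all libraries and by fold enrichment. The cause of these changes of scale was not tested. Leaving out 1 library gave 4 to 10 for adult villus over adult crypt, 6 to 9 for geriatric villus over crypt, 5 to 10 for adult villus over adult colon, 0 to 3 for adult crypt over adult colon, 6 to 7 for juvenile duodenum over colon, 7 to 10 for geriatric villus over proximal colon, 1 to 10 for adult villus over juvenile duodenum, 0 to 1 for geriatric over adult villus and 1 to 1 for adult over juvenile colon. Without both villus libraries 3, an alternative added after seeing the data, geriatric over adult villus was 1. No paired analysis was possible because a count of regions without a test has no fit to block, and whether libraries of the same number share mice was not stated. Depth may limit weak regions, which was not tested, and signal is unknown where no peak was called.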
